A study of Schizosaccharomyces pombe with 8 samples.

Results

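Trimethylation of histone H3 at lysine 4 (H3K4Me3) was measured relative to total histone H3 along the genome of *Schizosaccharomyces pombe* cells starved of nitrogen and sampled as premeiotic S phase began (−N). The 4 arrays of this comparison, out of 8 in the series, were chosen by their labels: 2 arrays of chromatin immunoprecipitated with an H3K4Me3 antibody and 2 with an H3 antibody. In both, immunoprecipitated DNA (ChIP) was hybridized against input DNA. All cells were h+ diploids of strain PN2159 carrying *pat1-114*, a temperature-sensitive allele of the kinase that blocks entry into meiosis, and were shifted to 34 °C to start meiosis synchronously. The −N cells had been depleted of nitrogen and were supplied with it again, and were taken 2 h after the shift. The +N cells, which appear only in the last comparison and where stated, stayed in nitrogen-rich medium, were arrested in G1 with the mating pheromone M-factor, and were taken 30 min after the shift. Because meiosis was forced by inactivating Pat1, neither group entered it through mating.

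H3K4Me3 is placed by the Set1 (COMPASS) complex, which travels with RNA polymerase II early in transcription, so that in yeasts the mark lies on the first nucleosomes of transcribed genes and fades along the gene body. Promoters upstream of these nucleosomes are depleted of histones. Heterochromatin at telomeres, centromeres and the mating-type region of fission yeast carries methylation at lysine 9 instead, and in the middle of each centromere H3 is largely replaced by the variant Cnp1.

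The question was which genes and regions carried much or little H3K4Me3 per nucleosome. For each probe the log2 ratio of ChIP over input was centred on the median nuclear probe of its array, and the H3 value was subtracted from the H3K4Me3 value of the same replicate number, which lay on the same slide. A difference of 0 is therefore the genome-wide median of each antibody and not a fixed amount of methylation. Of 42641 nuclear probes, 39462 were free of outlier flags on the 4 arrays. In the ChIP channel, 84.2% and 98.5% of the spots were well above background for H3 (replicates 1 and 2), and 56.8% and 95.1% for H3K4Me3, so low values on slide 1 rest more often on signal near background. Over 66 probes of mitochondrial DNA, which has no nucleosomes, the values were −3.80 and −4.53 for H3 and −3.52 and −3.70 for H3K4Me3. Their difference of 0.28 and 0.83 shows what 2 signals at background gave. The paper refers to biological replicates for these 2 antibodies, while the labels do not say that the replicates came from separate cultures. The p-values measure the spread between these arrays only.

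H3K4Me3 per nucleosome was concentrated just downstream of gene 5′ ends. In genes of at least 2500 bp the difference was highest 150 bp downstream of the annotated 5′ end, at 2.95 on slide 1 and 3.19 on slide 2. It crossed 0 between 850 and 950 bp, where it was 0.12 and −0.38 as the mean of the slides, and reached −1.35 at 1650 bp. H3 itself was lowest upstream of the 5′ end, with −0.93 at −50 bp in replicate 1 and −0.98 at −150 bp in replicate 2, and rose to 0.40 and 0.30 at 1650 bp. The gene body thus combined more H3 than the genome-wide median with less H3K4Me3 than its median. Towards the 3′ end the difference went from −1.34 at 1150 bp before the end to 0.47 at 50 bp before it, and to 1.24 at 350 bp past it.

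**Figure D1:**
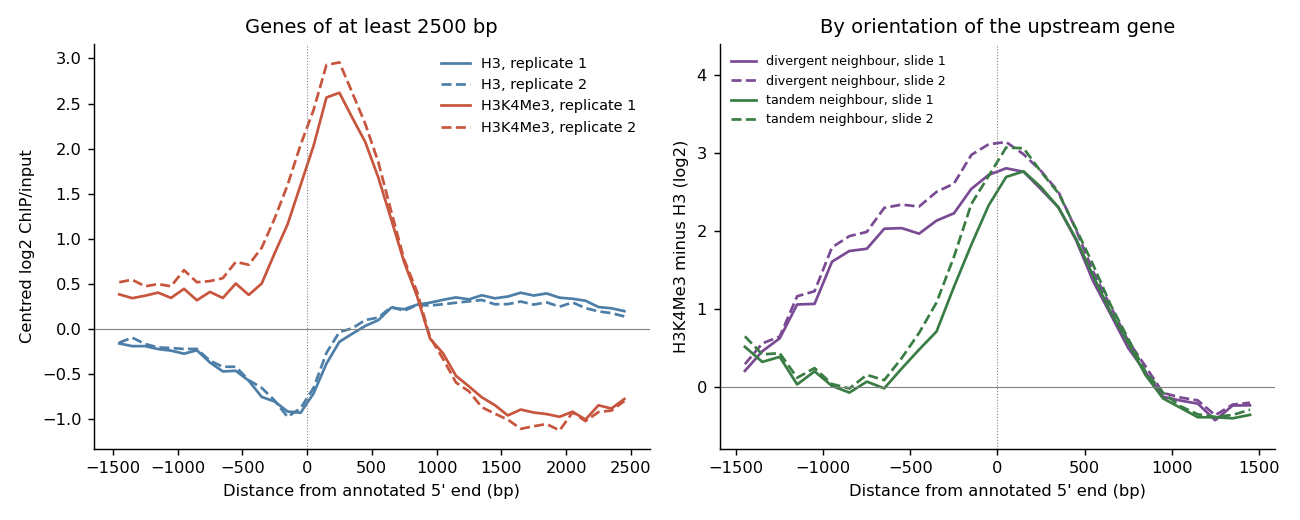
Left, centred log2 ChIP over input (y axis) of H3 and H3K4Me3 for both replicates against the distance from the annotated 5′ end (bp) in genes of at least 2500 bp, as means in bins of 100 bp. Right, H3K4Me3 minus H3 (log2) for genes whose upstream neighbour within 1000 bp is divergent or tandem, per slide; the curves coincide downstream of the 5′ end and separate upstream, to 2.16 against 0.03 at −650 bp.

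The signal upstream of a gene followed the orientation of its neighbour. For 1326 genes with a divergent neighbour within 1000 bp, the difference at −650 bp was 2.03 and 2.29 on the slides, and for 1545 genes with a tandem neighbour it was −0.02 and 0.08. Downstream of the 5′ end, both sets of genes had nearly equal means, with 2.87 and 2.91 at 150 bp and 1.95 and 1.97 at 450 bp. Gene length left the 5′ end nearly the same but not the body. The median at the 5′ end lay between 2.19 and 2.49 in 5 length classes, while the body fell from 0.44 in 111 genes under 1000 bp to −1.45 in 121 genes of 5000 bp and more. The body was taken from 750 bp after the 5′ end to the 3′ end. In short genes it therefore holds only probes near the 5′ end, so that length and distance from the 5′ end are not separated here.

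At the level of genes, nearly all 5′ ends carried more H3K4Me3 per nucleosome than the genome-wide median. Probes were averaged per gene in a stretch that began 250 bp before the 5′ end and ended 750 bp after it, and 4288 of 5113 protein-coding genes had at least 1 such probe. Of these, limma with Benjamini-Hochberg adjustment called 3903 higher than 0 (91%) and 143 lower (3.33%) at an adjusted p under 0.05, and 242 passed in neither direction. The median was 2.29, with 2.17 on slide 1 and 2.39 on slide 2, and the 5th and 95th percentiles were −0.13 and 3.40. In running means over 5 probes, 19664 of 39450 windows (49.8%) were called higher and 11497 (29.1%) lower. This split moved with the zero point: it was 24978 higher and 6938 lower with each array centred on its 10th percentile, and 15096 and 13965 without centring, when the median over genes was 2.95 and 1.87. The slides ordered the genes alike, with r = 0.934 across 4288 genes, which are not independent replicates. H3K4Me3 set most of this order: the difference correlated with H3K4Me3 at r = 0.917 and with H3 at r = −0.226 over the same genes, where the variance was 1.09 for H3K4Me3 and 0.183 for H3.

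The 12 highest genes were led by a transcription factor gene and a histone gene. The histone H3 gene *hht2* had H3 ratios of −0.25 and 0.16 and H3K4Me3 ratios of 4.44 and 5.01 in replicates 1 and 2, a difference of 4.77 (SE 0.28, adjusted p = 4.5e-05 in limma), or 27.3-fold. A gene for a GATA-type transcription factor, *fil1*, reached 4.78 (SE 0.53), but its slides differed, with 4.14 and 5.43. The remaining 10 of the 12 highest lay between 4.05 and 4.51 and rested on 2 to 4 probes each, with standard errors of 0.22 to 0.36, and the order of neighbours among them is not resolved.

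Among these 10, *pil1*, *fhn1* and *tcb1* encode membrane-organizing proteins: Pil1 and Fhn1 form eisosomes, furrows of the plasma membrane, and Tcb1 is a tricalbin that tethers the endoplasmic reticulum to it. At *pil1* the H3K4Me3 ratio was 3.03 and 3.86 and the H3 ratio −0.80 and −0.53. *msy1*, a mechanosensitive channel gene, had an unusually level pair of H3K4Me3 ratios, 4.56 and 4.61. The kinase gene *wee1*, whose product delays mitosis, had a difference of 3.72 and 4.37 at the 5′ end and −0.69 and −0.80 in its body. *nrd1*, which encodes an RNA-binding protein that holds back sexual development, had the highest H3K4Me3 ratio of all 4288 genes, 4.77 and 5.62, but also much H3, 0.53 and 1.23. The H2A.Z gene *pht1* showed the opposite make-up, with H3 at −1.52 and −1.61 and H3K4Me3 at 2.28 and 2.88, and still came to 4.15. *mug2*, *aah1* and SPAC3H8.04 complete the set at 4.06 to 4.08.

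**Figure D2:**
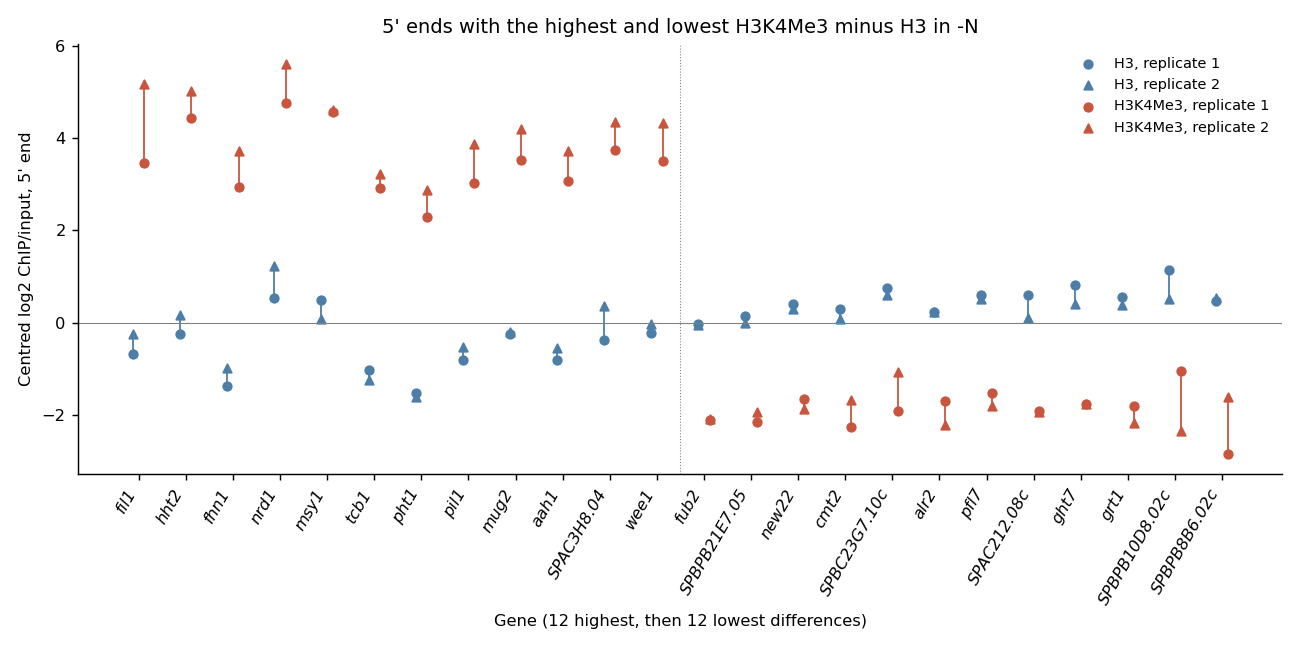
Centred log2 ChIP over input at the 5′ end (y axis) of H3 (blue) and H3K4Me3 (red) in replicate 1 (circles) and replicate 2 (triangles) for the 12 highest and the 12 lowest genes (x axis), a line joining the replicates. The antibodies do not overlap at any of the 24 genes, and H3 lies at or above −0.06 in all of the 12 lowest. Both are favoured by the choice of genes, which were picked by the difference.

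The lowest values came mostly from genes near chromosome ends. SPBPB8B6.02c, annotated as a urea transporter, had H3 ratios of 0.48 and 0.54 and H3K4Me3 ratios of −2.86 and −1.61, a difference of −2.74 (SE 0.40, adjusted p = 4.6e-04 in limma). Next to it, the transcription factor gene *grt1* had −2.35 and −2.55, and *ght7*, of the hexose transporter family, −2.58 and −2.18. In all 3 the gene body was also low, with means of the slides between −2.62 and −2.17. SPBPB10D8.02c (an arylsulfatase), *alr2* (alanine racemase), *pfl7* (a cell-surface glycoprotein), *cmt2* (catechol O-methyltransferase) and SPBPB21E7.05 lie with these on the left arm of chromosome II between 35112 and 119328. The others were SPAC212.08c on the left end of chromosome I, *new22* on chromosome III, *fub2* on the right end of chromosome II, and SPBC23G7.10c, which lies in the mating-type region. Among the 12, between 2 and 6 of the 4 to 10 H3K4Me3 ChIP measurements of a gene were well above background, so background limits how low these values could go, whereas all their H3 measurements were above it.

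The promoter of SPBPB8B6.02c (chrII:46832-47031, minus strand, RefSeq assembly ASM294v3, read 5′ to 3′ towards the gene), which has the lowest 5′ end, is printed to show its base composition, with a GC content of 21.0% and its runs of at least 7 A or 7 T in capitals, the longest of which has 29 letters. A run of 7 A or 7 T (AAAAAAA on either strand) stood in 49.7% of the promoters of genes called lower and in 39.1% of all. Among the 12 lowest genes it stood in only 3 (25%), and among the 12 highest in 4 (33.3%).
SPBPB8B6.02c: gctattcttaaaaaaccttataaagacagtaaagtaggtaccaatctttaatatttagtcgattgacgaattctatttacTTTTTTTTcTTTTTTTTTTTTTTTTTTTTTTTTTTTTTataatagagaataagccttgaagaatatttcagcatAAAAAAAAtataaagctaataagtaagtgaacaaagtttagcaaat

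The 143 genes called lower included clusters near chromosome ends, although most lay elsewhere. Within 100 kb of the outermost probe of a chromosome lay 45 of them (31.5%), against 150 of all 4288 genes (3.50%). Of the 143, 52 fell into 10 clusters of at least 3 neighbours. The largest cluster, 18 genes between 35112 and 119328 on chromosome II, had a median of −1.80. A keyword search was added after the values were seen. By it, 25 (17.5%) had a product named as a transporter, permease, symporter, antiporter, exporter or channel, against 4.06% of all genes. They include *str3* (siderophore iron), *ctr4* (copper), *mfc1*, *tgp1* (glycerophosphodiester), *isp4* and *opt3* (oligopeptides), and the amino acid permease gene *aat1*.

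These genes were not poor in histones, as the call itself favours, since H3 is subtracted. Their median H3 ratio was 0.14, against −0.29 over all genes, and 94 of the 143 were among the 858 genes with the most H3. Their median H3K4Me3 ratio was −1.21. A window with a difference of at least 2 lay within 1500 bp upstream of 9.09% of them, against 36.7% of all genes, and in the body of 1.40%, against 6.39%. Of their H3K4Me3 ChIP measurements, 55.4% were well above background, against 91.0% over all genes, and at 1 gene (SPAC977.05c) none was. In the +N arrays, which share no array with this comparison, 128 of the 142 genes with a value were also below 0, against 185 of 4276 over all genes. Without the probes that were dim on any of the 4 arrays, 50 of 4045 genes were called lower, and with centring on the 10th percentile 77 of 4288, all among the 143, of which 15 then lay above 0. Subtelomeric genes and transporter families hold near-identical copies, and a probe cannot tell such copies apart.

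*pat1* itself, named after its values were seen, was among the lower genes. Its H3 ratios were 0.41 and 0.48 and its H3K4Me3 ratios −0.84 and −1.46, a difference of −1.60 (SE 0.26, adjusted p = 8.6e-04 in limma), and its body was at −1.95 and −1.67. Only 3 of 6 H3K4Me3 measurements there were well above background.

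Gene lists were compared by role, each with its count of calls beside the 91% and 3.33% over all genes and its median beside 2.29. No list was tested as a set.

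Histone genes had the highest median of the lists, 3.65 over the 8 of 11 members with a value, all called higher. After *hht2* and *pht1* came the H2B gene *htb1*, with 4.28 and 3.71 on the slides. The lowest was *cnp1*, for the centromeric H3 variant, at 2.56 and 2.73. Fission yeast histone genes carry the AACCCT box, bound by the factor Ams2. AACCCT stood on either strand in 9 of the 11 histone promoters (81.8%), against 9.57% of 5112 promoters. For these counts a promoter was the 300 bp before the 5′ end, not cut where a neighbouring gene begins. Divergent pairs such as *hht2* and *hhf2* share 1 intergenic stretch. The promoters of *hht2* (chrII:1364985-1365118, plus strand) and *htb1* (chrIII:1412182-1412358, plus strand) are shown because they stand before 2 of the 3 highest histone 5′ ends. Both hold the box as the reverse complement in tandem, AGGGTTAGGGTT, in capitals, with matches starting 59 and 53 bp before the 5′ end. Here and below, sequences are from the RefSeq assembly ASM294v3, read 5′ to 3′ towards the gene's start and hold at most 200 bases, fewer where a neighbouring gene begins.
hht2: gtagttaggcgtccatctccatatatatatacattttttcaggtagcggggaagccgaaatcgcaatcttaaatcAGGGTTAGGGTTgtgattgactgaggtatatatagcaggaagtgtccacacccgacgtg
htb1: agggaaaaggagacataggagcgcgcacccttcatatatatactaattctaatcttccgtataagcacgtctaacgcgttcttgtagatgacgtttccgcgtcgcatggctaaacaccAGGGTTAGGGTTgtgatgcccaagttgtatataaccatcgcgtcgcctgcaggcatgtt

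Cytosolic ribosomal protein genes mostly lay above the median gene. All 115 with a value, of 131, were called higher, with a median of 2.95 (2.92 and 3.03 on the slides), and 102 were above the median gene. The highest with at least 2 probes were *rps1501*, at 3.72 and 4.13, *rps1101*, at 3.88 and 3.79, and *rps13*, at 3.69 and 3.91. *rps2802* was lowest at 1.27 and 1.14, followed by *rps1801* at 1.16 and 2.00. Most genes of this family share the HomolD box, which takes the place of a TATA box: CAGTCAC stood on either strand in 121 of the 131 promoters (92.4%), against 4.73% of all promoters. The 2 highest are shown with the box in capitals, as GTGACTG on the printed strand in *rps1501* (chrIII:798076-798243, plus strand) and as CAGTCAC in *rps1101* (chrI:2992446-2992645, plus strand), starting 56 and 54 bp before the 5′ end. The 106 genes with a value and the box had a median of 2.94, and the 9 without it 3.13.
rps1501: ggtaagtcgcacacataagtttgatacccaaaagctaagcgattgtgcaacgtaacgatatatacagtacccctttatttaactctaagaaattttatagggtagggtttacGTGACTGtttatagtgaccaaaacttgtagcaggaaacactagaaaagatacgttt
rps1101: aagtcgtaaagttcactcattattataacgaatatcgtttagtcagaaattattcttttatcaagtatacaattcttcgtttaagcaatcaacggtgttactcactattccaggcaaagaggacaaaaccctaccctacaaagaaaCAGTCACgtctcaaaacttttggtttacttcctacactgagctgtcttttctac

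Other housekeeping lists had medians on both sides of the 2.29 of all genes. All 26 proteasome genes with a value were called higher, with a median of 3.13, from *rpt1* at 3.91 to *rpt6* at 1.11. All 10 RNA polymerase II subunit genes were called higher around a median of 2.84, and so were all 16 genes for heat shock proteins and chaperones, at 2.65. In the last list *hsp16*, for a small heat shock protein, was lowest at 0.64 and 0.93, with 3 of 6 H3K4Me3 measurements above background, and did not pass without H3 replicate 1 or 2, at 0.81 and 0.76. All 23 replication licensing and initiation genes were called higher, with a median of 2.13, and 11 of them were above the median gene. There *mcm7* and *mcm6*, of the replicative helicase, led with 3.46 and 3.34, and *psf3*, of the GINS complex, was lowest with 1.38. The 7 genes of the H3K4 methylation complex had a median of 1.99, and 3 were above the median gene. All were called higher, as 91% of all genes were, from *swd3* at 2.77 over the methyltransferase gene *set1* at 2.31 to *swd1* at 1.39.

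**Figure D3:**
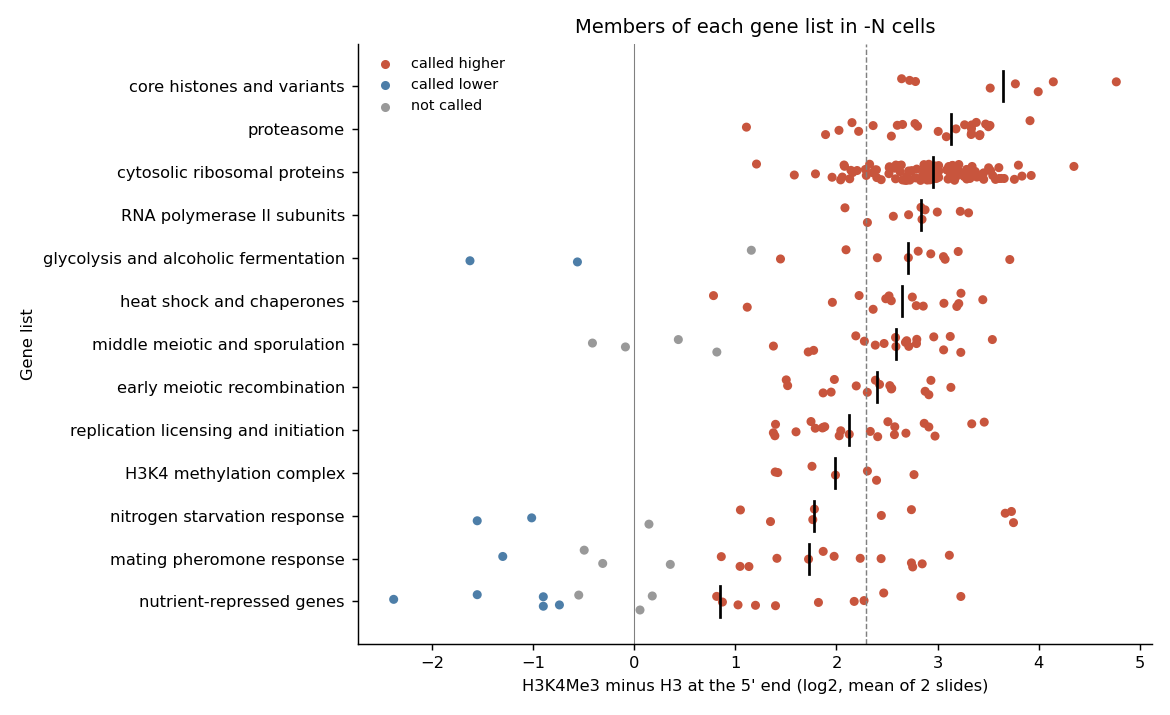
H3K4Me3 minus H3 at the 5′ end (x axis, log2, mean of the 2 slides) of each gene in 13 lists (y axis), coloured by the limma call, with a black bar at the list's median and a dashed line at the median of all genes, 2.29. Histone genes stand furthest right, with a median of 3.65, and the nutrient-repressed genes spread furthest to the left, with a median of 0.84.

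Genes of early meiotic recombination were close to the typical gene. All 16 with a value, of 18, were called higher, where 91% of all genes were, with a median of 2.41, and 10 were above the median gene. *mcp7*, for a partner in strand exchange, was highest at 3.08 and 3.19, and *rec7*, which helps to form the DNA breaks of meiosis, had 2.84 and 2.99 on slides 1 and 2 with much H3 (0.70 and 0.28). *rec12*, for the enzyme that cuts the DNA, was near the bottom with 1.47 and 1.57, and *rec6* lowest with 1.29 and 1.72. The promoters of this group stand out by the MluI cell-cycle box ACGCGT, in 11 of 18 (61.1%) against 2.90% of all promoters. That of *rec7* (chrIII:1549070-1549269, minus strand) and that of *rec8* (chrII:2568738-2568937, plus strand), which encodes the meiotic cohesin and was at 2.88, are shown with the box in capitals. It starts 32 bp before the 5′ end in *rec7* and 49 and 20 bp before it in *rec8*.
rec7: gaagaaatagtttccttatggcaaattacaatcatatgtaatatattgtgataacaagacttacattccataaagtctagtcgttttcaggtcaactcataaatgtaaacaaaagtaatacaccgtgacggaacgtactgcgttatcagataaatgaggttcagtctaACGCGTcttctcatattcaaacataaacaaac
rec8: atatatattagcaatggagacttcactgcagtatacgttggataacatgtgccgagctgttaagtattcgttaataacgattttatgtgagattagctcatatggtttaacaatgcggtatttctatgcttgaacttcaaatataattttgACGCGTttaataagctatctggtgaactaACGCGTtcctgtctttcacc

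Among 23 middle meiotic and sporulation genes, 19 were called higher and 4 were not called, with a median of 2.58. The forkhead factor gene *mei4*, which switches this group on, was highest at 3.07 and 4.01, followed by *mes1* at 3.23 and the septin gene *spn5* at 3.13. Not called were *mfr1*, for an activator of protein degradation in meiosis, at −0.51 and −0.32, *spo6* at −0.49 and 0.31, the cyclin gene *rem1* at −0.12 and 0.99, and *isp3*, whose single probe had no H3K4Me3 measurement above background. Of 80 *mug* genes, which were named for their induction in meiosis, 62 were called higher, 2 lower and 16 in neither direction, with a median of 1.92.

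The mating pheromone genes lay on both sides of 0. Of 17 with a value, 13 were called higher and 1 lower, with a median of 1.72. Of the 17, 5 were above the median gene. The highest were the G protein gene *gpa1*, at 2.80 and 3.43, *sxa1*, for a protease, at 2.84 and 2.85, and the kinase gene *byr1*, at 2.90 and 2.61. The pheromone gene *mfm3*, which encodes M-factor, was called lower at −1.43 and −1.18 (SE 0.31, adjusted p = 0.0059 in limma), with 4 of its 6 H3K4Me3 measurements above background. *map3*, the M-factor receptor gene, had −0.30 and −0.32, and *map2*, for P-factor, −0.70 and −0.29, neither of which passed. The TR box TTCTTTGTT, which the mating regulator Ste11 binds, stood on either strand in 8 of 21 promoters of this list (38.1%), against 2.01% of all promoters. It is shown in capitals in *ste11* itself (chrII:3983176-3983375, plus strand), at 2.56 and 2.92, and, as AACAAAGAA, in *mfm3* (chrII:700164-700363, plus strand), since both carry the box and lie on opposite sides of 0.
ste11: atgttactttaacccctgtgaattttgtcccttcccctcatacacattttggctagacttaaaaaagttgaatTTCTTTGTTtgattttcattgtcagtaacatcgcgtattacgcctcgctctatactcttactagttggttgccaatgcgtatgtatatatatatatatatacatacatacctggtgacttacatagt
mfm3: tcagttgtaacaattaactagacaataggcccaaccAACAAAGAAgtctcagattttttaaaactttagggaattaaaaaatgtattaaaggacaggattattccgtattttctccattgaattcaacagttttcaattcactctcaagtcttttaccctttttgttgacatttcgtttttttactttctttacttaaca

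Nitrogen starvation genes likewise spanned most of the range. Of 12 with a value, 9 were called higher and 2 lower, with a median of 1.77. The ammonium transporter gene *amt1* was highest at 3.47 and 4.04, with *glt1*, for glutamate synthase, at 3.40 and 3.94. Its paralog *amt3* had −0.01 and 0.30 and passed in neither direction, while *amt2* was at 2.44. *isp4*, for an oligopeptide transporter, was called lower at −0.92 and −1.11, and *inv1*, for invertase, at −1.71 and −1.40.

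Nutrient-repressed genes had the lowest median of the lists. Of 18, 10 were called higher, 5 lower (*ght7*, *inv1*, *tgp1*, *ght8* and *ght1*) and 3 in neither direction, at 0.84. In the hexose transporter family, *ght3* and *ght5* were at 2.47 and 2.27, against −0.74 for *ght1*, −0.90 for *ght8* and −2.38 for *ght7*. *thi4*, of thiamine synthesis, was highest at 2.94 and 3.52, whereas *nmt1* of the same pathway had 0.36 and −0.25. Phosphate genes were near or below 0, with 0.18 for *pho84*, −0.55 for *pho1* and −0.90 for *tgp1*, of which *tgp1* alone passed, but not without H3 replicate 2 (−0.82, adjusted p = 0.070 in limma).

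Glycolytic genes had a median above that of all genes, at lower H3K4Me3 and lower H3, but spread to both sides of 0. Of 13 with a value, 10 were called higher and 2 lower, where 91% and 3.33% of all genes were, and 8 were above the median gene. Their median was 2.71, while their median H3K4Me3 ratio was 1.04, against 1.97 over all genes. Their median H3 ratio was −0.87, against −0.29. *tpi1* was highest at 3.63 and 3.80 and *pgi1* followed at 3.20. The 2 lower genes were *eno102*, an enolase gene in the cluster on the left arm of chromosome II, at −1.49 and −1.76, and *pfk1*, for phosphofructokinase, at −0.73 and −0.39. The value of *pfk1* passed narrowly (adjusted p = 0.038 in limma) and turned to 0.10 with centring on the 10th percentile. It did not pass without H3 replicate 1 or 2, at −0.42 and −0.71. At *tdh1* the H3 ratios were −3.40 and −1.93 and the H3K4Me3 ratios −2.39 and −0.63, so that a difference of 1.16 (adjusted p = 0.13 in limma) stood between 2 low signals. It was 1.89 without H3 replicate 2 and 2.04 without H3K4Me3 replicate 1, and then passed.

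The genes whose rank rose most when H3 was subtracted have low H3 by this choice, and are given as a description. *fba1*, for the glycolytic aldolase, moved from rank 568 of 4288 (counted from the lowest) in H3K4Me3 to rank 3750 in the difference. Its H3 ratios were −2.67 and −1.99 and its H3K4Me3 ratios −0.12 and 1.61, with 4 of 6 H3 measurements above background. The enolase gene *eno101* rose from rank 746 to 3544, with H3 at −2.17 and −1.63. *sui1* (translation initiation factor eIF1), *dad5* (a kinetochore protein) and *zym1* (metallothionein) had mean H3 ratios between −2.06 and −1.77. Of their H3 measurements, 3 of 4 were above background at *sui1* and 5 of 8 at *dad5*, so that the ranks are approximate. In *fba1* and *eno101* the body was at 2.56 and 2.39, and the contrast of 5′ end and body, 0.51 (SE 0.69) and 0.55 (SE 0.46), did not pass (adjusted p = 0.49 and 0.28 in limma).

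The genes whose rank fell most have high H3, again by the choice. *skb5*, for a protein that binds the kinase Shk1, had H3 ratios of 1.03 and 1.05 and H3K4Me3 ratios of 2.90 and 2.91, and went from rank 3940 to 1324. The others were *mak5*, *arc2*, *rrp8* and SPCC320.03, with mean H3 ratios between 0.57 and 0.72. All 5 stayed called higher, at 1.73 to 1.93. In 5 equal groups of genes ordered by H3, the median difference went from 2.55 in the poorest to 1.91 in the richest, while the median H3K4Me3 ratio went from 1.69 to 2.13.

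The 5′ end exceeded the gene body in most genes. Of 3655 genes with both, 3285 (89.9%) were called higher at the 5′ end and 59 (1.61%) lower, with a median of 2.75, a contrast that does not depend on how an array is centred. The lower count was 31 without either H3 array. The contrast was steepest in long genes, whose body by its definition reaches further from the 5′ end. *ura1*, for the first enzyme of pyrimidine synthesis, had 3.61 and 4.17 at the 5′ end and −1.44 and −1.82 over 21 probes of its body, a contrast of 5.52 (SE 0.32, adjusted p = 4.8e-05 in limma). *ags1*, for the cell wall α-glucan synthase, had 5.35 over a body of 25 probes, and *fil1*, *tcb1* and *nrd1* were at 5.33 to 5.36.

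In a few genes the difference was higher in the body than at the annotated 5′ end. *pdp1*, for a chromatin protein with a PWWP domain, had 0.22 and 0.70 at the 5′ end and 2.54 and 2.91 in the body, a contrast of −2.27 (SE 0.26, adjusted p = 1.5e-04 in limma). The ion channel gene *trp663* had the lowest contrast, −2.62, from −2.11 and −1.88 at the 5′ end to 0.58 and 0.66 in the body. SPAC56F8.15, SPAPB24D3.07c and *osr1* had contrasts of −2.32 to −2.42. In each of these 5 genes the contrast was negative on both slides, and the body rested on 2 to 6 probes. The bodies of *trp663* and SPAPB24D3.07c (0.30 and 0.88) were near the 0.28 and 0.83 over mitochondrial DNA, so their contrasts rest on a low 5′ end. The body also reaches the 3′ end, where the difference rose in long genes.

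Classes of noncoding RNA genes differed in their medians, and whether this follows the polymerase that transcribes them was not tested. Within 250 bp of the gene, the median difference was 3.05 in 6 snRNA genes and 2.55 in 56 snoRNA genes. It was 1.03 in 30 genes of the class small ncRNA, 0.30 in 123 tRNA genes and 0.24 in 32 genes for 5S rRNA. tRNA and 5S genes are transcribed by RNA polymerase III, and so is the U6 gene *snu6*, which was the lowest snRNA gene at 0.81 and 1.35. The polymerase II genes *snu1*, *snu2*, *snu4* and *snu5* were at 2.13, 3.18, 2.92 and 4.24. H3 was low over both kinds, with medians of −1.57 and −1.45 for snRNA and −1.12 and −1.26 for tRNA genes in replicates 1 and 2. The tRNA median was 0.38 and 0.16 on the slides, beside 0.28 and 0.83 over mitochondrial DNA, whose H3 was far lower. Among snoRNA genes *snR41* was highest at 4.52 and 4.85, and *snu3* (U3) had 4.11 and 4.12. tRNA genes ranged from −2.55 to 3.95, and their probes are shared with the genes beside them.

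**Figure D4:**
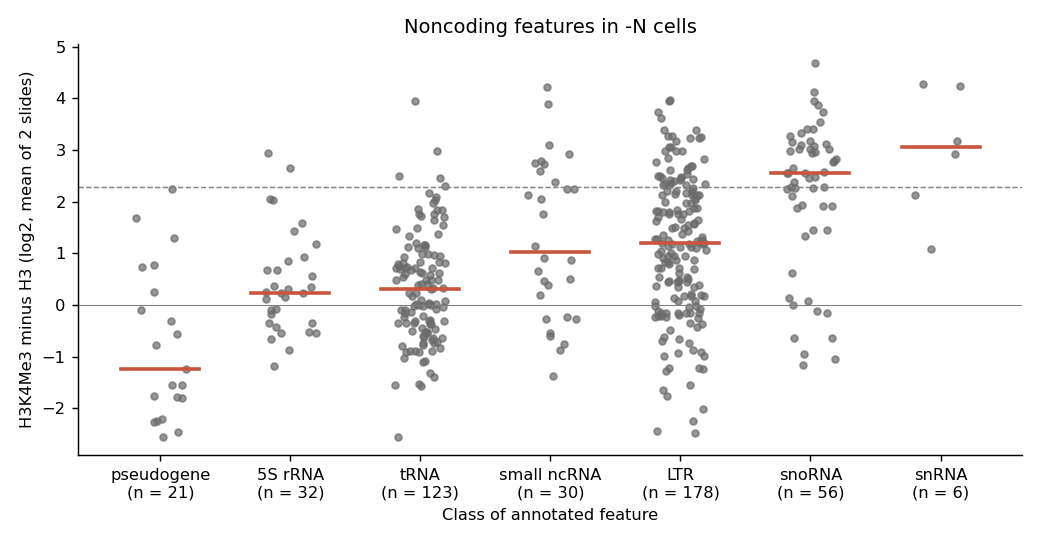
H3K4Me3 minus H3 (y axis, log2, mean of the 2 slides) of each annotated noncoding feature, 1 point each, by class (x axis), with a red bar at the class median and a dashed line at the median of protein-coding 5′ ends, 2.29. Pseudogenes have the lowest median, −1.25, and snRNA genes the highest, 3.05.

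Pseudogenes were lowest, with a median of −1.25 over 21, and 6 above 0. The 4 lowest of them, at −2.26 to −2.55, lie at the left ends of chromosomes I and II, and H3 there was between 0.56 and 0.84. The 178 annotated LTRs of retrotransposons had a median of 1.19, with H3 at −1.22 and −1.32 and values from −2.47 to 3.96. No Tf2 element had a value of its own at the 5′ end. Long noncoding RNAs whose 5′ end lay over 1500 bp from any protein-coding 5′ end, 1022 in all, had a median of −1.39, and 866 (84.7%) were below 0 on both slides. Among them 16 annotated entries reached 2 on both slides, led by *mamRNA*, a host of snoRNAs, at 3.58 and 3.64, and SPNCRNA.6369 at 3.41 and 3.79. *mamRNA* is entered more than once with the same 5′ end, so that the distinct RNAs are fewer. The other 4836 had a median of 1.11. ChIP does not tell the strands apart, so that a value in an antisense RNA is also one of the gene it overlaps.

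The ends of chromosomes I and II carried little H3K4Me3 per nucleosome. The mean over probes within 25 kb of the outermost probe was −2.23 and −2.19 on chromosome I and −1.80 and −1.87 on chromosome II, on slides 1 and 2. On chromosome III, whose ends adjoin the ribosomal DNA, it was −0.57 and −0.58, and already 0.34 and 0.37 between 25 and 50 kb. H3 was not low there, with 0.78 and 0.52 on chromosome I. Of 33 genes within 25 kb of the outermost probe, 20 were called lower, against 3.33% of all genes. The count was 4 of 39 between 50 and 75 kb, and 10 of 43 between 75 and 100 kb. Beyond 200 kb it was 89 of 3939.

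**Figure D5:**
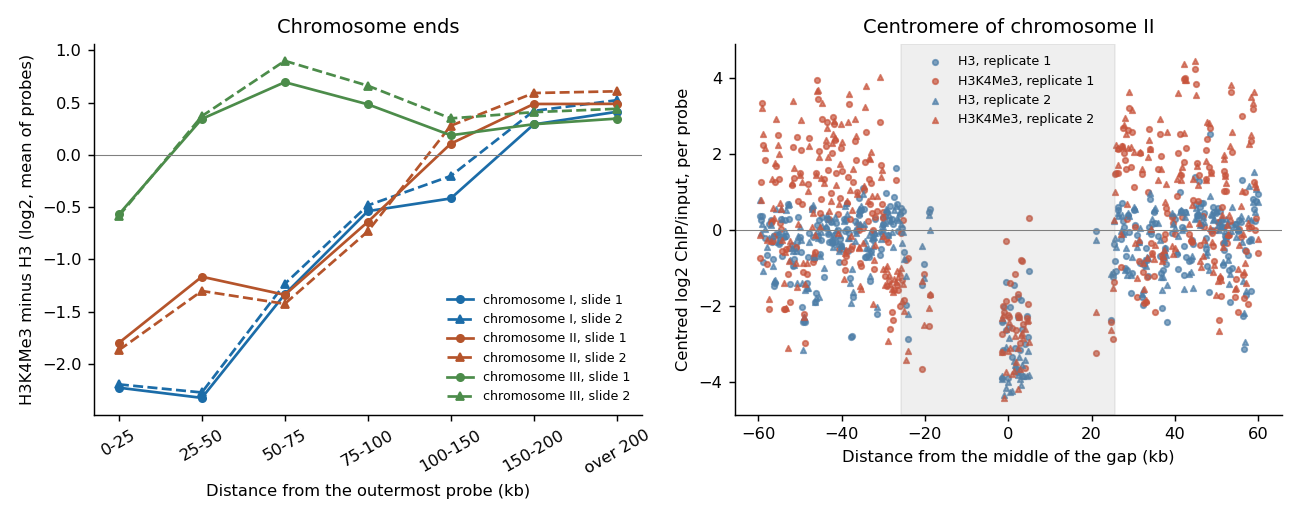
Left, mean H3K4Me3 minus H3 (y axis, log2) by distance from the outermost probe (x axis, kb) for chromosomes I, II and III on each slide. Right, centred log2 ChIP over input (y axis) of single probes around the centromere of chromosome II (x axis, kb from the middle of the stretch without protein-coding genes, in grey), where both antibodies fall together in the centre.

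Of the 6 longest runs of windows at or under −1 on both slides, 5 lay towards the ends of chromosomes I and II and 1 at the centromere of chromosome III. The longest was 37783 bp on chromosome II from 76061 to 113843, with −1.94 and −2.30 over 80 probes. It holds *alr2*, *aat1*, SPBPB10D8.02c and other genes of the cluster named above. Another on the same arm, from 29534 to 53754, holds *ght7*, *grt1* and *fah1*, at −2.08 and −2.35. A pair of runs lies at the right end of chromosome I, from 5535311 to 5566771 (−2.37 and −2.38) and from 5512449 to 5535586 (−2.40 and −2.30), where the probe coordinates were not compared with the annotation. The remaining runs held few probes: 9 on the left arm of chromosome I from 22274 to 50802, and 13 on chromosome III from 1066716 to 1097682, within the stretch around the centromere that holds tRNA genes and no protein-coding gene. Of 1341 low runs in all, which took up 18.3% of the windows, 92 were longer than 5 kb. Of these, 21 lay within 150 kb of the outermost probe. High runs, at or over 2, numbered 1504, had a median length of 1781 bp, and 8 were longer than 5 kb.

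The highest windows lay at gene 5′ ends on all 3 chromosomes. Chromosome I from 5005286 to 5006263 had 3.97 and 3.96 on the slides and was not compared with the annotation. The next were at *pil1* (3.77 and 4.15), at *fhn1* (3.77 and 3.99), between *rpl35A01* and *tcb1* (3.62 and 4.03), at *snu3* and *tif308* (3.71 and 3.81), and at *orm1* and *asn1* (3.65 and 3.87). Each had an adjusted p of 1.2e-04 in limma.

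In the middle of centromere II, on chromosome II from 1616745 to 1631744, both antibodies were low. Over 24 probes H3 was −2.65 and −3.67 and H3K4Me3 −1.96 and −3.03, so that the difference of 0.69 and 0.64 lies between 2 low signals. In the gene-free stretch on either side of it the few probes varied. The difference was −1.94 and −1.56 over 4 probes from 1601745 to 1606744, but 0.09 and −1.49 over 5 from 1596745 to 1601744, and −0.10 and −0.17 over 4 from 1646745 to 1648231. The 50 kb to the left and to the right of the gene-free stretch were at 0.59 and 0.85. In the mating-type region, taken from *mat1-Mc* to *mat3-Mc* (2114482 to 2133394 on chromosome II), H3 was 0.29 and 0.17 over 53 probes. The difference was −1.02 and −0.72, against 0.97 and 1.24 in the 20 kb to the left and to the right. A low run from 2128834 to 2137338, at −1.66 and −1.57 over 11 probes, passed the right edge, so the right flank holds part of it. The region also holds genes other than the cassettes, such as SPBC23G7.10c. Of 8 genes with a value in the region, 4 were called lower, against 3.33% of all genes, and 3 higher. The mating-type cassettes repeat one another's sequence, so that their probes may report more than 1 of them.

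Whether a gene's H3K4Me3 per nucleosome differed between −N and +N was tested as an interaction over all 8 arrays. limma called 0 of 4276 genes (0% higher and 0% lower). The unadjusted p was under 0.05 for 113 genes, and the smallest adjusted p was 0.957. The median of −N minus +N was −0.30. It was −0.19 without centring, and −0.15 and −0.44 without H3K4Me3 −N replicates 1 and 2, respectively. With the replicate number as a block, 4 genes passed: *ppk1* and *fbp1* higher in −N, and *ctr5* and *hsp3102* lower.

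The genes with the largest differences were chosen among those with 1 sign on both slides, and their values here are over the probes kept on all 8 arrays. *fbp1*, for the gluconeogenic enzyme fructose-1,6-bisphosphatase, had 2.09 and 2.26 on the −N slides, against −0.12 and 0.54 on the +N slides, which is 1.96 apart (adjusted p = 0.957 without and 0.0077 with the block in limma). *pgk1*, for phosphoglycerate kinase, had 3.48 and 2.63 against 0.95 and 1.77. In the other direction, *ctr5*, for a copper transporter subunit, had 0.13 and 1.34 against 3.82 and 3.07, which gives −2.71. *hsp3102*, for a glyoxalase, had −0.62 and 0.02 against 1.52 and 1.56, and *shu1*, of heme uptake, −2.33 and −1.82 against 0.90 and −1.64.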

How the data were processed

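The 8 arrays were Agilent two-colour arrays with 42641 nuclear probes, and 4 of them entered the main comparison. Per the file headers, the authors extracted the spots with Agilent Feature Extraction 10.7.3.1, and the deposited processed intensities were already background-subtracted and dye-normalized. The authors' deposited table held the log2 ratio of the processed red over green signal, which equalled the ratio recomputed from the intensities. The labels state that ChIP material was amplified by T7 RNA polymerase, and put ChIP DNA in the red and input DNA in the green channel of every array, without a dye swap. The ratio is therefore ChIP over input, and mitochondrial DNA was low in it on each of the 8 arrays.

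Each array's log2 ratio was centred on its median nuclear probe, without loess or quantile normalization. Probes flagged as outliers on any −N array were left out. Gene, window and noncoding values were means over probes. The difference of H3K4Me3 and H3 was fitted with limma 3.58.1 (R 4.3.3) on the 4 −N arrays without the replicate number as a block, and on all 8 for −N against +N, with Benjamini-Hochberg adjustment over all genes or windows and a threshold of 0.05. The fits were tested on simulated data. With 2 arrays against 2, an exact two-sided permutation test of 1 value cannot go below p = 0.333, so no such test was made, and the limma p-values borrow their spread from all genes. Python 3.11.15 with pandas 2.3.3, numpy 2.4.6 and matplotlib 3.10.9 was used for the rest.

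The genome build of the probes was not given in the sources used here. It was tested by correlating probe length with the GC content of ASM294v3 at the probe's coordinates, at different shifts: in 43 of 50 segments the fit was best without a shift. The other 7, on the right of chromosome I, were shifted, and their probes enter only the windows, runs and chromosome ends. Genes there have no value.

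The 12 highest and 12 lowest genes had at least 2 probes, at least 50% of their ChIP measurements above background over both antibodies together, a call, and 1 sign on both slides. All H3 measurements of the 12 lowest were above background, so they met that share whatever their H3K4Me3 signal. For changes of rank and for the 5′ end against the body, 5 genes on either side were named, and for −N against +N the 3 highest and 3 lowest. In lists, the 1 to 3 highest and lowest members with at least 2 probes were named. Other genes in the text were chosen after their values were seen. The part of the series, the gene lists and the motifs were chosen with earlier results of these data known.

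The alternatives were centring on the 10th percentile, no centring, quantile normalization within an antibody, normexp background correction (on the median signal, with an offset of 50), the deposited table, keeping outlier spots, leaving out dim probes, other windows and probe minimums, the replicate number as a block, and leaving out each array. Spots not above background hold a floor, so that low H3K4Me3 values are bounds rather than levels.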

Additional observations from a re-analysis of the deposited data

Results flagged for a closer look

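*ppk1*, which encodes a serine/threonine protein kinase, stood out because its 5′ end was above 0 on both −N slides and below 0 on both +N slides. Over the probes kept on all 8 arrays, H3K4Me3 minus H3 on the −N slides was 0.20 and 0.59, against −3.47 and −0.46 on the +N slides, which is 2.36 apart. The +N slides were further apart than the −N slides. In limma the adjusted p was 0.957 without and 0.0012 with the replicate number as a block. Over the 2 probes kept on the −N arrays alone, the values were 0.84 and 0.98.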

How the results depend on the processing

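The 4046 genes called at the 5′ end, and the 3903 higher ones, stayed within 1.5 times of these counts under every alternative run, while the lower calls depended on the zero point and on dim spots. Genes called lower numbered 77 with centring on the 10th percentile and 50 of 4045 without dim probes, 45 of them among the 143. Windows called lower numbered 6938 and 1255 under the same settings, and without dim probes 17342 of 20583 windows were called. Leaving out dim probes takes out the spots with little H3K4Me3 first. The 5′ end against the body, in genes of at least 2000 bp, gave 1722 calls of 1799, with 1706 higher and 16 lower. *pfk1* reversed to 0.10 with centring on the 10th percentile, where the zero point lies lower.

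Leaving out each array in turn gave 3864 to 4129 genes called (96 to 182 lower, 3759 to 3986 higher) and 26610 to 33809 windows (9499 to 12584 lower, 17111 to 21349 higher). It gave 3155 to 3432 genes with a different 5′ end and body, and 31 to 79 of them lower, with 31 without either H3 array. The comparison of −N with +N stayed at 0. Among 109 results at the 5′ end, which are the named genes and the median over all genes, 1756 pairs of result and setting stayed the same. Of the other pairs, 25 lost the call, 16 gained it, 1 reversed and 4 moved. Those that moved were of the median, 2.29 in the main fit. It was 2.95 with centring on the 10th percentile, 1.87 without centring, 1.54 with normexp, and 2.76 from the 5′ end to 500 bp downstream.

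With the replicate number as a block, 4126 genes (167 lower), 33242 windows, 3430 genes with a different 5′ end and body (74 lower) and 4 genes between −N and +N were called. The numbers share only a slide: deviations of H3 and H3K4Me3 from their −N means correlated at 0.497. The 2 pairs do not settle a pairing.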
